A study of Homo sapiens with 36 samples.

Results

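The 10 genes described here were higher or lower with interleukin-8 (IL-8) in each of 3 cell lines, out of 58735 genes in the count table. SPP1, PKIB, TFPI2, NNMT and SRPX were the 5 that were higher, and NFAM1, C5AR1, SERPINA10, C5 and CPE the 5 that were lower. They were chosen by their IL-8 differences, so those differences are given as a description with no test. The plasmid experiment and the levels between lines were not used in the choice and are tested. All 10 genes passed the filter on low counts, which kept 18398 genes where IL-8 was given and 18556 where plasmids were.

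RNA-seq counts were available for 36 libraries in 12 groups of 3, from HN4, HN6 and Cal27, which are established cell lines grown from human squamous carcinoma of the head and neck. In the IL-8 experiment each line was left untreated or was given recombinant human IL-8, the neutrophil-attracting chemokine, for 24 h at 100 ng per ml, the aim being to see its function where the IL-8 receptor CXCR1 is expressed to different extents. In the plasmid experiment the cells received either a vector or a plasmid with ACLY (ATP-citrate lyase, the source of cytosolic acetyl-CoA from citrate), and the aim was to find genes downstream of that enzyme. All cells were grown in medium with exosome-depleted serum, the dose of plasmid and the time after transfection were not given in the labels, and each line is a single tumour line with no normal cells beside it. The labels number the replicates but do not tell whether they came from separate cultures, so the p-values speak only of how these libraries varied, and that variation may be technical.

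The 10 genes encode proteins of several systems. SPP1 encodes osteopontin, a secreted ligand of integrins and CD44. C5 is the complement protein whose cleavage frees C5a, and C5AR1 is the receptor of C5a. TFPI2 is a Kunitz-type inhibitor of serine proteases in the extracellular matrix, and SERPINA10 is the inhibitor that acts on coagulation factor Xa together with protein Z. PKIB is an inhibitor of the catalytic subunit of protein kinase A, NNMT methylates nicotinamide with S-adenosylmethionine as the donor, and CPE trims the basic residues left when prohormones are cut. NFAM1 is a membrane receptor with an ITAM motif that acts on NFAT, best known from immune cells, and SRPX is a secreted protein with sushi repeats.

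The libraries were alike in depth. Totals ran from 16570601 to 20232735 counts, and levels are given as depth-scaled counts (CPM). A gene with no read in a library could still be at 0.148 to 0.181 CPM, the limit that 3 counts set, for counting error only. The epithelial list fitted the labels: 16 to 18 of its 18 markers were at 1 CPM or more in every group, and the hepatocyte list had none of 13 markers at that level in any group. Of the 18 leukocyte markers, 2 to 4 were at 1 CPM or more and 6 to 10 had no read, by group. CSF1R, a cytokine receptor of macrophages, had 509 to 1634 reads per group and CD14, a receptor of monocytes, 151 to 356, while PTPRC had 0 to 3 and SPI1 0 to 2. ITGAM and ITGAX, integrin subunits of myeloid cells, ran from 0 to 9.65 and from 0 to 6.21 CPM over the libraries.

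Replicate 3 of Cal27 with IL-8 and replicate 3 of the HN4 libraries labelled ACLY stood apart from the rest. Mitochondrial genes took 1.06% of the counts in the first, against 3.37% and 3.59% in the other Cal27 IL-8 libraries, and 2.15% in the second, against 5.71% and 6.03% in the other HN4 libraries labelled ACLY. The other 34 libraries had 3.16% to 6.24%. The chi-square per degree of freedom over genes against their own replicates was 104 and 107 for the first and 36.6 and 41.1 for the second, beside 1.99 to 8.44 in the other 32 pairs. Without the first, the Cal27 IL-8 differences of the 10 genes kept their signs at 0.82 to 1.38 times their log2 size, and C5 alone crossed the threshold (edgeR adjusted p = 0.0508). Without the second, the same 8 of the 10 genes were called in HN4, with log2 sizes of 0.819 to 1.15 times those with it. C5AR1, which was not called, was at 0.762 times.

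The ACLY level went against the labels in HN4. ACLY was at 1510 ± 9.08 CPM where the HN4 label says vector and at 345 ± 28.5 CPM where it says ACLY (mean ± SD, n = 3, as for all levels below). Untreated HN4 libraries held 368 ± 7.32 CPM and HN4 libraries with IL-8 held 1360 ± 17 CPM. In Cal27, ACLY was at 232 ± 4.78 CPM untreated, 1170 ± 127 CPM with IL-8, 229 ± 13.2 CPM with vector and 1890 ± 32.4 CPM with the ACLY plasmid. In HN6 it was at 283 ± 3.55 CPM untreated, 228 ± 3.07 CPM with IL-8, 270 ± 4.14 CPM with vector and 2210 ± 61.8 CPM with the ACLY plasmid. ACLY was thus high in the IL-8 libraries of HN4 and Cal27, and not in those of HN6, and its part in the values of the 10 genes was not tested.

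Some Cal27 libraries also held reads of genes that the other Cal27 libraries lacked. For each line, genes were taken that reached 10 CPM or more in its untreated libraries and stayed under 0.3 CPM in the untreated libraries of the other lines, which gave 13 for HN4, 15 for HN6 and 22 for Cal27. The 13 HN4 genes had a median level of 0 in untreated and vector Cal27, of 0.321 of the untreated HN4 level in Cal27 with IL-8 (range over libraries 0.301 to 0.354) and of 0.54 in Cal27 with the ACLY plasmid (0.528 to 0.552). The 22 Cal27 genes were at 0.651 and 0.36 of the untreated Cal27 level in the same 2 groups. In all 4 HN6 groups the HN4 genes had a median of 0, and the 15 HN6 genes had a median of 0 in every HN4 and Cal27 group. The part of HN4 reads in the Cal27 values below was not tested.

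**Figure D1:**
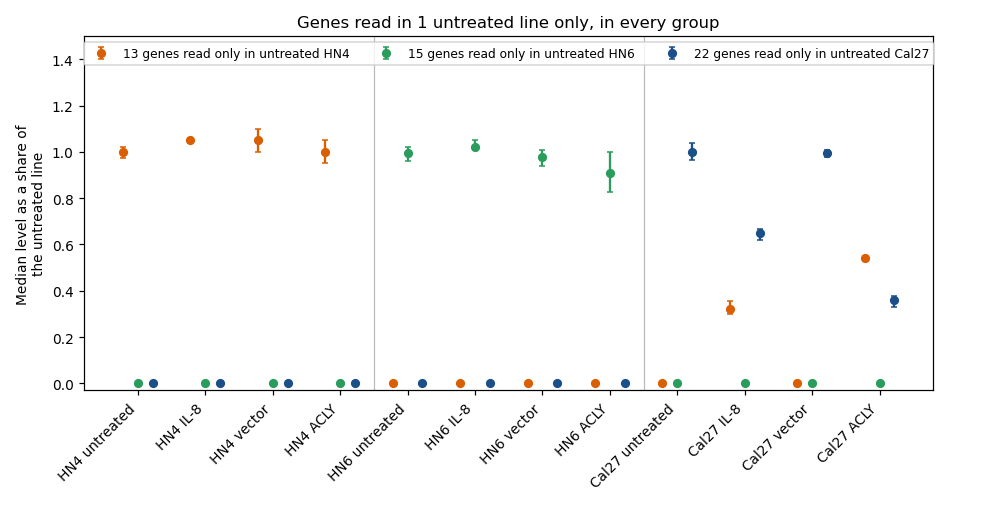
Median level of genes read in only 1 untreated line, as a share of their level in that untreated line (vertical axis, linear), in the 12 groups (horizontal axis). Points are the mean over 3 libraries of each library's median and bars the lowest and highest library. Genes of HN4 stand at 0.321 in Cal27 with IL-8 and at 0.54 in Cal27 with the ACLY plasmid, and at 0 in the other Cal27 groups and in HN6.

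The choice of the genes sets where their IL-8 differences begin. It also made it likely that their untreated and IL-8 libraries lie apart. Such gaps below are thus description and no support, and the share of all genes with them was not counted. In the edgeR fit, the share of tested genes called with IL-8 at an adjusted p under 0.05 was 14.0% in HN4 (6.89% higher, 7.09% lower), 15.4% in HN6 (7.61% and 7.81%) and 39.4% in Cal27 (22.7% and 16.7%), and each of the 10 genes was called in all 3 lines because the choice asked for it. These backgrounds depend on the Cal27 library that stood apart: without Cal27 IL-8 replicate 3, the called genes went from 2572 to 5738 in HN4 and from 2837 to 6194 in HN6. Genes called higher in all 3 lines numbered 26 (0.141%), and genes called lower in all 3 numbered 29 (0.158%). The 2 members nearest the threshold were NFAM1 in HN6, with an adjusted p of 0.04997, and NNMT in HN4, with 0.0336. Genes nearest outside it were sought among protein-coding genes whose smallest difference was at least that of the smallest member. The first 2 were MMP28, lower in all lines but with an adjusted p of 0.0537 in HN4, and C6orf15, higher in all lines but with 0.0713 in HN4. The threshold alone did not set the members. SP140 (log2 1.09, 2.12 and 2.10 in HN4, HN6 and Cal27) and CP (-2.29, -1.11 and -1.41) were called in all 3 lines and are not among the 10. Of the 30 calls (10 genes in 3 lines), 11 were lost under at least 1 alternative setting. NFAM1 in HN6 was lost under 19 of 24, NNMT in HN4 under 7 of 25, and SERPINA10 in HN6, C5 in HN6 and C5 in Cal27 under 4 of 25 each. CPE in HN6 was lost under 3 of 26, C5AR1 under 3 of 24 in HN4 and 2 of 25 in Cal27, and PKIB in HN6 and TFPI2 in HN4 and in HN6 under 1 each.

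Per transcript length, the 10 genes were of low abundance, and each line had its own order. In untreated HN4, SRPX was highest at 7.05 RPKM, the CPM divided by gene length, followed by TFPI2 at 3.37 RPKM, and C5AR1 was lowest at 0.199 RPKM, below PKIB at 0.333 RPKM. In untreated HN6, TFPI2 was highest at 6.7 RPKM, PKIB stood at 2.26 RPKM and C5AR1 at 1.94 RPKM, and NFAM1 was lowest at 0.0164 RPKM. In untreated Cal27, CPE was highest at 7.46 RPKM and SPP1 and TFPI2 were lowest at 0.0367 and 0.0251 RPKM.

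**Figure D2:**
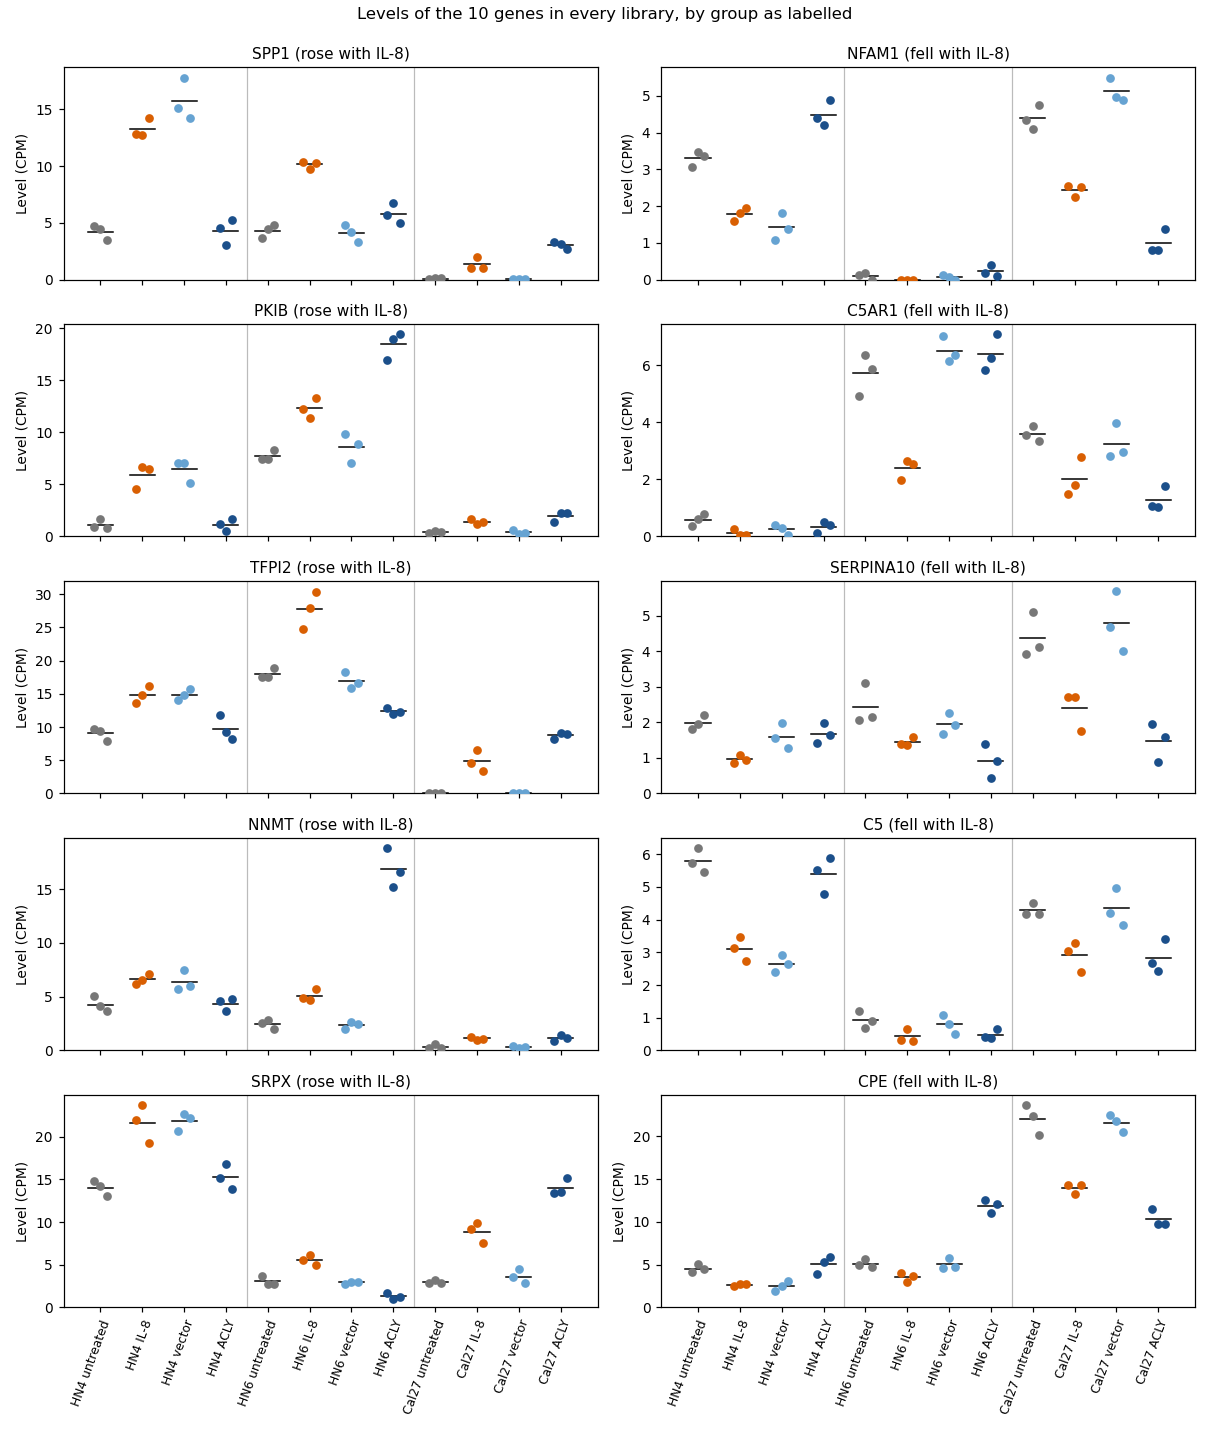
Level of each gene in CPM (vertical axes, linear from 0) in every library (points) of the 12 groups (horizontal axis, as labelled), with the group mean as a line, grey for untreated, orange for IL-8, light blue for vector and dark blue for ACLY. SPP1 and TFPI2 lie near 0 in untreated and vector Cal27, NNMT is highest in HN6 with the ACLY plasmid, and the HN4 libraries labelled vector lie near those with IL-8.

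Promoter letters are shown for 3 genes, TFPI2 and CPE because they held searched motifs and SPP1 because its smallest difference over the lines was the largest of the 5 genes that were higher, and its window held none. The windows are the 250 bases before the RefSeq start on GRCh38.p14, chr7:93890754-93891003 on the minus strand for TFPI2, chr4:165378758-165379007 on the plus strand for CPE and chr4:87975464-87975713 on the plus strand for SPP1. Capitals mark motif matches, found on either strand.
TFPI2: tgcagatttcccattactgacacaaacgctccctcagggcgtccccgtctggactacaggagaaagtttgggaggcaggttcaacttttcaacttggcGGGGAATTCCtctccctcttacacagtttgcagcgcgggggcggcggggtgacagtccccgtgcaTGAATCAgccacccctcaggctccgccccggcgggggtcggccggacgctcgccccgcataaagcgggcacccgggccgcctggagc
CPE: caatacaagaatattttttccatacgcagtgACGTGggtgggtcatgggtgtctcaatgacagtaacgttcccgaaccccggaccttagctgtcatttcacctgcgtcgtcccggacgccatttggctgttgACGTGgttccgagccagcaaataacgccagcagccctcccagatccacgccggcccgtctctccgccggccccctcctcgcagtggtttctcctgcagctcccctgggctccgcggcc
SPP1: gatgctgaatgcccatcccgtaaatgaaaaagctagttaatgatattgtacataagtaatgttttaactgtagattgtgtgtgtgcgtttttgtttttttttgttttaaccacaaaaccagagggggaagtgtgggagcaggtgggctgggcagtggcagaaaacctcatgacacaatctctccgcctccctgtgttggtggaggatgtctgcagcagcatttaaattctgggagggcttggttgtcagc

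Windows were found for 9 of the 10 genes, all but NNMT. The AP-1 motif TGANTCA was in 1 of the 9, TFPI2, at positions -87 to -81 from the start, and in 6.57% of 35093 RefSeq windows of that length. The NF-kB motif was also in TFPI2 alone, at positions -152 to -143, and in 9.95% of all windows. ACGTG, the core of the hypoxia response element that also lies within the E-box CACGTG, was in CPE alone, at 2 places, and in 18.5% of all windows. The cyclic AMP response element TGACGTCA (1.65% of all windows), the E-box CACGTG (6.34%) and TATAAA (10.7%) were in none of the 9. These counts describe letters in the windows and no binding. The 9 windows ranged from 34.8% GC in C5 to 65.2% in NFAM1, beside a median of 58.0% over all windows.

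SPP1 (chromosome 4, 87975650 to 87983426, plus strand, hg38) was higher with IL-8 by similar amounts in HN4 and HN6. In HN4 it read 4.73, 4.41 and 3.47 CPM untreated and 12.8, 12.7 and 14.2 CPM with IL-8. In HN6 it read 3.65, 4.48 and 4.80 CPM untreated and 10.4, 9.71 and 10.3 CPM with IL-8. The libraries did not overlap in either line, and the fitted log2 differences were 1.62 ± 0.16 (SE) and 1.23 ± 0.16. In Cal27 the 3 untreated libraries held 1, 2 and 2 reads and the 3 IL-8 libraries 18, 36 and 18, a ratio of 15.7 (95% exact conditional interval 6.43 to 49.8, counting error only).

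PKIB (chromosome 6, 122471917 to 122726373, plus strand) had its largest IL-8 difference in HN4. It read 0.905, 1.67 and 0.854 CPM untreated and 4.56, 6.63 and 6.48 CPM with IL-8, a log2 difference of 2.34 ± 0.22. In HN6 it went from 7.48, 7.46 and 8.34 CPM to 12.2, 11.4 and 13.3 CPM, and in Cal27 from 0.411 ± 0.0989 to 1.42 ± 0.229 CPM. Libraries of the 2 groups were apart in all 3 lines, which the choice made likely. PKIB shares 454 exon bases with an unnamed transcript on its own strand, Z99129.3, so its reads are uncertain to that extent.

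TFPI2 (chromosome 7, 93885396 to 93890991, minus strand) differed by less in HN4 and HN6 than in Cal27. In HN4 it read 9.76, 9.42 and 7.97 CPM untreated and 13.6, 14.8 and 16.2 CPM with IL-8. In HN6 it read 17.5, 17.6 and 18.9 CPM untreated and 24.8, 27.9 and 30.4 CPM with IL-8. The libraries of the 2 groups were apart in both lines, which the choice made likely, with log2 differences of 0.68 ± 0.16 and 0.62 ± 0.15. In Cal27 the untreated libraries held 0, 2 and 2 reads and the IL-8 libraries 84, 119 and 58, a ratio of 71.2 (95% exact conditional interval 27.5 to 263). TFPI2 shares 44 exon bases with GNGT1 and 79 with the antisense gene AC002076.1, both on the other strand, and whether counting used the strand was not given in the sources used here.

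NNMT (chromosome 11, 114257787 to 114313285, plus strand) was higher with IL-8 by the most in Cal27, where its level was lowest. It went there from 0.36 ± 0.226 to 1.12 ± 0.144 CPM, a log2 difference of 1.60 ± 0.33. Its 3 HN6 libraries went from 2.51, 2.81 and 2.04 CPM untreated to 4.85, 4.66 and 5.70 CPM with IL-8, a log2 difference of 1.04 ± 0.20. In HN4 it went from 5.03, 4.13 and 3.64 CPM to 6.17, 6.57 and 7.13 CPM, a smaller gap with a log2 difference of 0.60 ± 0.18. Its place among genes higher in all lines rests on this HN4 difference. The edgeR adjusted p there was 0.0543 with library-size scaling, 0.0566 with upper-quartile scaling and 0.057 to 0.144 without any 1 of 5 of the 6 HN4 libraries, the exception being untreated replicate 1 (0.0332).

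SRPX (chromosome X, 38149336 to 38220924, minus strand) was the most abundant of the 10 genes in untreated HN4 by RPKM. It went from 14.8, 14.2 and 13 CPM to 21.9, 23.7 and 19.2 CPM with IL-8 there, a log2 difference of 0.60 ± 0.12. In HN6 it went from 3.71, 2.75 and 2.70 CPM to 5.52, 6.14 and 4.93 CPM, and in Cal27 from 3 ± 0.225 to 8.86 ± 1.2 CPM. None of the 3 lines had overlapping libraries.

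Of the 5 genes that were lower, C5 and C5AR1 form a ligand and receptor pair, and their abundance differed by line. C5 (chromosome 9, 120952335 to 121050276, minus strand) read 5.73, 6.19 and 5.47 CPM in untreated HN4 and 3.14, 3.48 and 2.73 CPM with IL-8. In Cal27 it went from 4.29 ± 0.186 to 2.91 ± 0.458 CPM, and in HN6, where it was scarce, from 48 reads to 23 over the 3 libraries. C5AR1 (chromosome 19, 47290023 to 47322066, plus strand) was scarce in HN4, which held 7, 11 and 14 reads untreated and 4, 1 and 1 with IL-8, a ratio of 0.204 (95% exact conditional interval 0.0698 to 0.495). Its HN4 call was lost without HN4 untreated replicate 3 (edgeR adjusted p = 0.0634), IL-8 replicate 2 (0.0732) or IL-8 replicate 3 (0.0656). The log2 difference of -2.26 in HN4 became -3.21 without IL-8 replicate 1 and -1.92 without IL-8 replicate 2. In HN6, C5AR1 went from 4.91, 6.37 and 5.88 CPM to 1.99, 2.63 and 2.53 CPM, and in Cal27 from 3.54, 3.88 and 3.34 CPM to 1.49, 1.80 and 2.80 CPM. The log2 differences were -1.26 ± 0.24 and -0.84 ± 0.25, and the libraries were apart in both lines.

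SERPINA10 (chromosome 14, 94280455 to 94293271, minus strand) was lower with IL-8 by a like amount in all 3 lines. HN4 libraries went from 1.81, 1.95 and 2.22 CPM to 0.863, 1.07 and 0.951 CPM. In HN6 the levels were 2.44 ± 0.575 and 1.45 ± 0.122 CPM, and in Cal27 4.39 ± 0.644 and 2.4 ± 0.56 CPM. The log2 differences were -1.07 ± 0.24, -0.75 ± 0.22 and -0.89 ± 0.19. Fewer cells of a type and less RNA per cell cannot be told apart in such bulk libraries.

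CPE (chromosome 4, 165361194 to 165498320, plus strand) was most abundant in Cal27. It went there from 23.7, 22.4 and 20.1 CPM to 14.3, 13.3 and 14.3 CPM with IL-8, a log2 difference of -0.68 ± 0.11. In HN4 it went from 4.17, 5.02 and 4.44 CPM to 2.53, 2.70 and 2.73 CPM. In HN6 the gap was the smallest of the 3, from 4.91, 5.62 and 4.74 CPM to 4.03, 3.02 and 3.70 CPM, a log2 difference of -0.51 ± 0.13.

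NFAM1 (chromosome 22, 42380410 to 42432395, minus strand) was read in HN4 and Cal27 and close to absent in HN6. In HN4 it went from 3.07, 3.46 and 3.36 CPM to 1.60, 1.80 and 1.96 CPM with IL-8, and in Cal27 from 4.35, 4.09 and 4.76 CPM to 2.54, 2.24 and 2.51 CPM. The log2 differences were -0.90 ± 0.21 and -0.87 ± 0.19. In HN6 the untreated libraries held 2, 3 and 0 reads and the IL-8 libraries none, which lies at or under the limit that 3 counts set in each library, so no fold is given. With DESeq2 the adjusted p in HN6 was 0.0786, and without HN6 untreated replicate 2 the edgeR value was 0.221, and 19 of 24 alternatives lost the call. Its place among genes lower in all 3 lines thus rests on 5 reads.

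The plasmid experiment was not used in the choice of the genes, and HN6 is described first because its ACLY level followed the labels and it held no HN4 genes. There 7 of the 10 genes were called by edgeR's quasi-likelihood test with Benjamini-Hochberg adjustment, beside 51.6% of all genes tested (26.8% higher, 24.9% lower). Of these, 4 moved the way they had with IL-8 (SPP1, PKIB and NNMT higher, SERPINA10 lower) and 3 moved the other way (TFPI2 and SRPX lower, CPE higher). The remaining 3, C5AR1, C5 and NFAM1, did not pass. The share of all genes that moved the way they had with IL-8 was not counted.

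NNMT had the largest called change in HN6. It read 1.96, 2.68 and 2.46 CPM with vector and 18.8, 15.2 and 16.6 CPM with the ACLY plasmid, its highest level in any of the 12 groups. It rose 7.18-fold (log2 2.84 ± 0.17, edgeR adjusted p = 7.5e-16). PKIB rose 2.16-fold, from 9.84, 7.08 and 8.92 CPM to 16.9, 19.0 and 19.4 CPM (edgeR adjusted p = 2.8e-06). SPP1 rose less, from 4.78, 4.22 and 3.32 CPM to 5.68, 6.71 and 4.94 CPM (log2 0.50 ± 0.18, edgeR adjusted p = 0.0194). This SPP1 call was lost without HN6 vector replicate 3 (edgeR adjusted p = 0.128) or without HN6 ACLY replicate 2 (0.126).

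CPE, which was lower with IL-8 in HN6, rose with the plasmid. It read 4.55, 5.76 and 4.75 CPM with vector and 12.6, 11 and 12.1 CPM with the ACLY plasmid, a 2.39-fold rise (edgeR adjusted p = 4.8e-09). SRPX fell from 2.76, 2.97 and 3.03 CPM to 1.66, 0.936 and 1.27 CPM (log2 -1.17 ± 0.22, edgeR adjusted p = 2.3e-05). TFPI2 fell from 18.3, 15.9 and 16.6 CPM to 12.9, 11.9 and 12.3 CPM (log2 -0.44 ± 0.12, edgeR adjusted p = 0.00193). In all 3 of these genes the 2 groups did not overlap, and the share of all genes without such overlap was not counted.

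SERPINA10 fell in HN6 from 1.67, 2.28 and 1.94 CPM with vector to 1.38, 0.44 and 0.917 CPM with the plasmid (log2 -1.10 ± 0.33, edgeR adjusted p = 0.00503). Without HN6 ACLY replicate 2, the lowest of these libraries, the edgeR adjusted p was 0.0554. Then 5 of the 10 genes were called, beside 51.6% of all genes with every library kept. The share of all genes called without that library is not given here. C5AR1 read 7.02, 6.16 and 6.35 CPM with vector and 5.85, 6.27 and 7.08 CPM with the plasmid (log2 -0.01 ± 0.20, edgeR adjusted p = 0.99), with overlapping libraries. C5 read 42 reads over the vector libraries and 27 over the plasmid libraries (log2 -0.70 ± 0.36, edgeR adjusted p = 0.11), and 0.0427 without HN6 vector replicate 3. NFAM1 had 3 reads in all with vector and 12 with the plasmid (edgeR adjusted p = 0.0576). Its call changed with the setting: the adjusted p was 0.0368 without HN6 vector replicate 1, 0.029 without HN6 ACLY replicate 3 and 0.0488 with upper-quartile scaling.

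**Figure D3:**
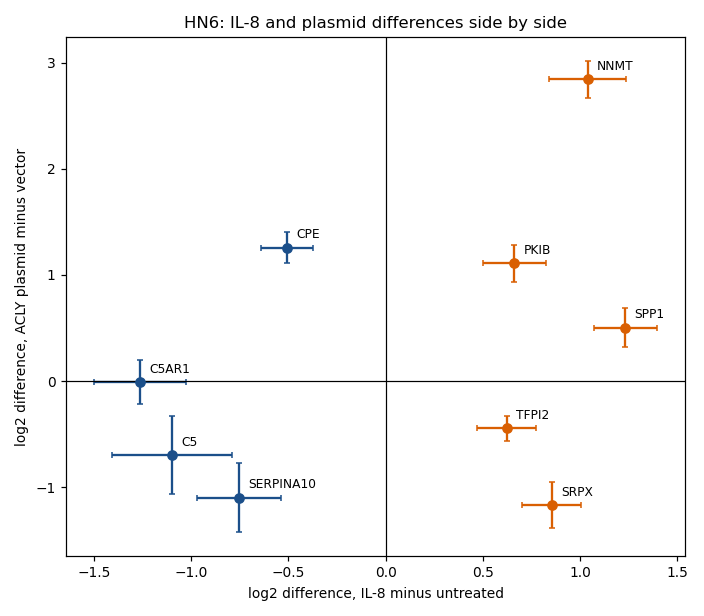
Log2 differences of 9 genes in HN6 with IL-8 (horizontal axis) and with the ACLY plasmid (vertical axis), with standard errors, orange for genes higher with IL-8 and blue for genes lower. NFAM1 is left out because its IL-8 libraries held no reads. CPE lies at -0.51 and 1.26, SRPX at 0.85 and -1.17 and NNMT at 1.04 and 2.84.

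In Cal27 all 10 genes were called with the ACLY plasmid, each in its IL-8 direction, beside 63.2% of all genes called by edgeR (34.2% higher, 29.0% lower). The share of all genes that kept their IL-8 direction was not counted, so the shared direction is not read as particular to the 10. SPP1 had 1 read in each vector library and 62, 63 and 47 with the plasmid, a ratio of 59.5 (95% exact conditional interval 20 to 291). TFPI2 had 2, 1 and 1 reads with vector and 155, 183 and 157 with the plasmid, a ratio of 128 (49.8 to 473). SRPX rose 3.86-fold, from 3.57, 4.46 and 2.81 CPM to 13.4, 13.5 and 15.2 CPM (edgeR adjusted p = 8.7e-14). PKIB rose 4.74-fold, from 0.406 ± 0.22 to 1.99 ± 0.524 CPM, and NNMT 3.46-fold, from 0.323 ± 0.0996 to 1.15 ± 0.299 CPM (edgeR adjusted p = 2.8e-06 and 3.4e-05).

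The 5 genes that were lower with IL-8 all fell with the plasmid in Cal27. NFAM1 went from 5.50, 4.98 and 4.89 CPM to 0.797, 0.798 and 1.37 CPM (log2 -2.39 ± 0.26, edgeR adjusted p = 1e-09). SERPINA10 went from 4.70, 5.71 and 4 CPM to 1.96, 0.898 and 1.60 CPM (log2 -1.71 ± 0.27), C5AR1 from 3.26 ± 0.634 to 1.29 ± 0.412 CPM (log2 -1.35 ± 0.27) and CPE from 22.5, 21.8 and 20.5 CPM to 11.5, 9.78 and 9.75 CPM (log2 -1.07 ± 0.13). C5 changed least, from 4.35 ± 0.579 to 2.84 ± 0.514 CPM (log2 -0.63 ± 0.21, edgeR adjusted p = 0.00803), and its call was lost without replicate 2 of either group (0.0584 without vector replicate 2 and 0.0561 without ACLY replicate 2).

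These Cal27 values stand beside the 13 HN4 genes at 0.54 and the 22 Cal27 genes at 0.36 in the plasmid libraries. With the plasmid, all 10 genes moved from the Cal27 vector level towards that of the HN4 libraries labelled vector, as did 84.4% of 18056 genes tested in both experiments. Towards the HN4 libraries labelled ACLY 9 of 10 moved (77.9% of all), and towards HN6 vector 8 of 10 (67.6%). With IL-8, 9 of 10 moved from untreated Cal27 towards untreated HN4 (74.3% of all) and 9 of 10 towards untreated HN6 (64.7%), while 7 of 10 came to lie between untreated Cal27 and untreated HN4 (56.4%). The exception was C5 for HN4 and C5AR1 for HN6.

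The levels that the 5 higher genes reached in Cal27 were unequal shares of their HN4 levels. With IL-8, NNMT reached 0.263 of the untreated HN4 level, SPP1 0.319, TFPI2 0.536, SRPX 0.632 and PKIB 1.24, beside a median of 0.321 for the 13 HN4 genes. PKIB thus lay above untreated HN4. Against HN4 with IL-8 the shares were 0.169 for NNMT, 0.101 for SPP1, 0.327 for TFPI2, 0.41 for SRPX and 0.241 for PKIB. With the plasmid, the shares of the HN4 libraries labelled vector were 0.179 for NNMT, 0.194 for SPP1, 0.308 for PKIB, 0.591 for TFPI2 and 0.643 for SRPX. Against the HN4 libraries labelled ACLY they were 0.264, 0.707, 1.75, 0.899 and 0.922 in the same order.

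In HN4 the labelled comparison ran against IL-8. Of the 10 genes, 8 were called by edgeR in the libraries labelled ACLY against those labelled vector, beside 38.1% of all genes (18.9% higher, 19.1% lower), and all 8 went opposite to their IL-8 direction. How many of all genes went opposite was not counted, so this is not read as particular to the 10. SPP1 was lower in the libraries labelled ACLY, at 4.56, 3.07 and 5.26 CPM against 15.1, 17.8 and 14.2 CPM (log2 -1.85 ± 0.17, edgeR adjusted p = 7e-11). PKIB read 1.18, 0.569 and 1.66 CPM against 7.10, 7.10 and 5.13 CPM (log2 -2.47 ± 0.25, edgeR adjusted p = 3.3e-09). TFPI2, NNMT and SRPX were lower by less, with log2 differences of -0.59 ± 0.12, -0.54 ± 0.17 and -0.50 ± 0.12. The NNMT call, at an edgeR adjusted p of 0.0117, was lost without replicate 2 of either group (0.096 without that labelled vector and 0.0668 without that labelled ACLY).

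NFAM1, C5 and CPE were higher in the HN4 libraries labelled ACLY. NFAM1 read 4.39, 4.21 and 4.88 CPM against 1.07, 1.82 and 1.37 CPM (log2 1.67 ± 0.25, edgeR adjusted p = 2.4e-06). C5 read 5.51, 4.78 and 5.87 CPM against 2.39, 2.93 and 2.64 CPM, and CPE 3.94, 5.29 and 5.93 CPM against 1.91, 2.46 and 3.10 CPM (log2 1.04 ± 0.21 and 1.02 ± 0.18). C5AR1 (18 against 13 reads, edgeR adjusted p = 0.55) and SERPINA10 (1.69 ± 0.293 against 1.61 ± 0.364 CPM, edgeR adjusted p = 0.84) did not pass, and the sign of each turned when 1 library was left out.

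Set side by side, the HN4 libraries labelled vector overlapped the IL-8 libraries in most of the 10 genes, and those labelled ACLY the untreated ones. The libraries labelled vector did not overlap those with IL-8 for 2 of the 10 genes, SPP1 and SERPINA10, both higher, beside 16.1% of all genes. They did not overlap the untreated libraries for 8 of 10, beside 50.6%. The libraries labelled ACLY did not overlap the untreated ones for 1 of 10, NFAM1, which was higher, beside 18.5%, and did not overlap those with IL-8 for 9 of 10, beside 41.2%. ACLY itself was at 1510 and 1360 CPM in the first pair of groups and at 345 and 368 CPM in the second. In HN6 the vector and untreated libraries overlapped for all 10 genes (9.63% of all genes did not). In Cal27 they did not overlap for 2 (9.79% of all): NFAM1 was higher with vector, and SPP1 had 1 read in each vector library and 1, 2 and 2 untreated, all under the limit that 3 counts set, so no direction is read.

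**Figure D4:**
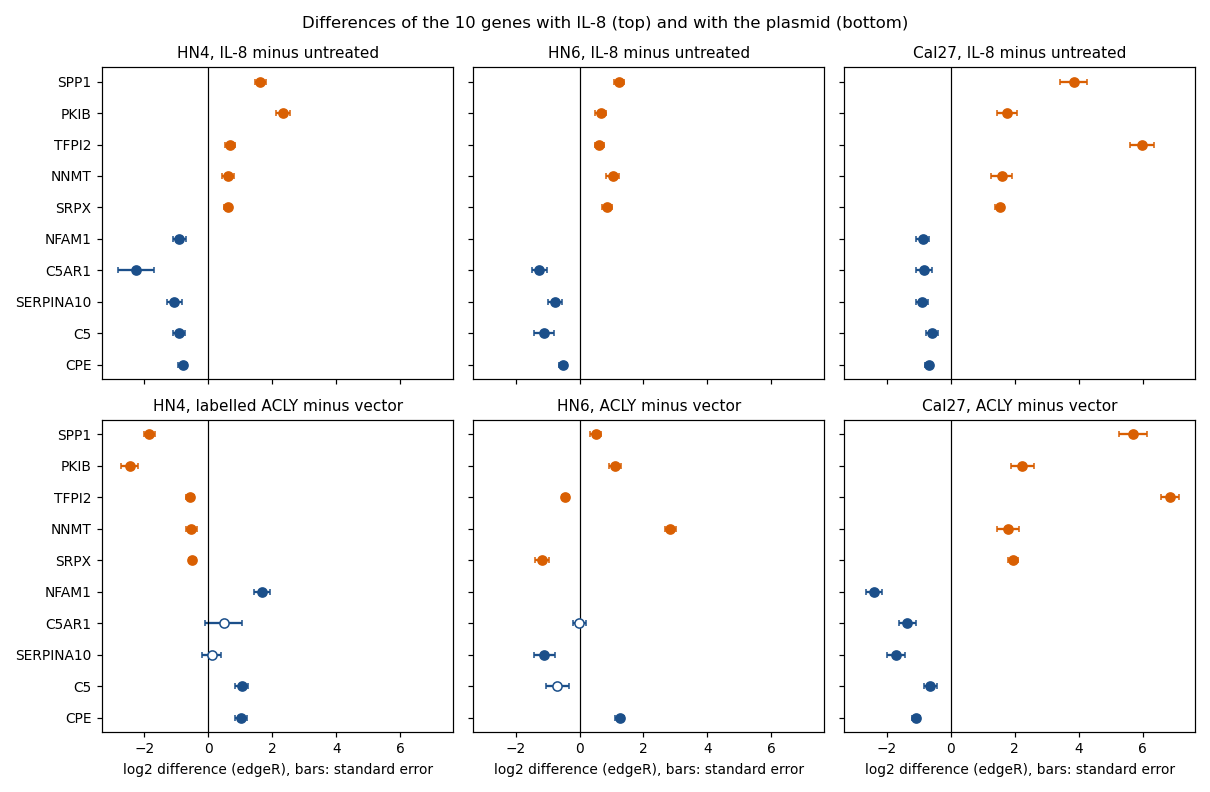
Fitted log2 differences (horizontal axes) of the 10 genes (vertical axes) with IL-8 (top row) and between the plasmid groups (bottom row) in each line, with standard errors, orange for genes higher with IL-8 and blue for genes lower. Open points in the bottom row had an edgeR adjusted p of 0.05 or more, and NFAM1 in HN6 is left out. The bottom row is mirrored in HN4, mixed in HN6 and in the IL-8 direction in Cal27.

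The response to the plasmid as labelled differed among the lines for all 10 genes (edgeR test of both interaction terms), beside 70.9% of all genes. That count uses the HN4 labels, which the ACLY level went against. Between HN6 and Cal27 alone, the response differed for 8 of the 10, beside 61.9% of all genes, in a test added after the data were seen. TFPI2 had the smallest adjusted p of the 8 (1e-19) and NNMT the largest (0.0392). C5, at -0.70 in HN6 and -0.63 in Cal27, did not differ by more than its error (log2 difference of the responses 0.07 ± 0.39, edgeR adjusted p = 0.91), nor did SERPINA10 (-0.61 ± 0.43, 0.23).

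Among the vector libraries, Cal27 and HN6 differed in 9 of the 10 genes, beside 73.3% of all genes called. Cal27 and the HN4 libraries labelled vector differed in all 10 (71.8%), and Cal27 and the HN4 libraries labelled ACLY in 8 (69.8%). HN6 differed in 7 from either HN4 group (69.3% for that labelled vector and 72.1% for that labelled ACLY). SPP1 was at 15.7 ± 1.84 CPM in the HN4 libraries labelled vector, 4.3 ± 1.12 CPM in those labelled ACLY, 4.11 ± 0.736 CPM in HN6 and 3 reads in all in Cal27. Its HN6 level was thus below the first HN4 group (log2 -1.95 ± 0.17) and did not differ beyond its error from the second (-0.10 ± 0.19, edgeR adjusted p = 0.65). TFPI2 was at 14.8 ± 0.814 CPM in the HN4 libraries labelled vector and 16.9 ± 1.24 CPM in HN6, which did not pass (edgeR adjusted p = 0.18), and at 4 reads in Cal27. Against the HN4 libraries labelled ACLY, TFPI2 in HN6 was higher (log2 0.76 ± 0.12, edgeR adjusted p = 9.8e-07).

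C5AR1 and C5 were ordered in opposite ways between HN4 and HN6. C5AR1 was higher in HN6 vector libraries than in HN4 libraries labelled vector (log2 4.69 ± 0.34), while C5 was lower (log2 -1.73 ± 0.27), with edgeR adjusted p-values of 2.1e-14 and 8.7e-07. Against the HN4 libraries labelled ACLY the differences were 4.21 ± 0.32 and -2.77 ± 0.25. CPE was 4.37-fold higher in Cal27 vector libraries than in those of HN6, and NFAM1 had 300 reads in Cal27 vector libraries and 3 in HN6. SRPX in Cal27 and HN6 (log2 0.33 ± 0.18, edgeR adjusted p = 0.094) and SERPINA10 in HN6 and HN4 labelled vector (log2 0.29 ± 0.30, 0.40) did not pass. SRPX passed with library-size scaling (0.0232), with upper-quartile scaling (0.0243), among genes with a mean of 5 CPM or more (0.0276) and without Cal27 vector replicate 3 (0.0217). PKIB in HN6 and HN4 labelled vector was at an edgeR adjusted p of 0.0548. It passed under 10 of 25 settings with the same groups, among them 0.0198 without HN6 vector replicate 2 and 0.0253 without HN4 ACLY replicate 3, and was at 5.4e-12 against the HN4 libraries labelled ACLY.

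The lists below are read beside the shares of all genes called with the plasmid, 26.8% higher and 24.9% lower in HN6, 34.2% and 29.0% in Cal27 and 18.9% and 19.1% in HN4 as labelled. Most other complement genes rose with the plasmid in HN6, while C5 and C5AR1 did not pass the test. Of 19 complement genes tested, 12 rose (63.2%) and 2 fell (10.5%), with a median log2 difference of 0.76 beside 0.04 for all genes tested. CFB, the protease of the alternative pathway, rose from 10.6 ± 0.468 to 49 ± 0.562 CPM (edgeR adjusted p = 4.8e-19), and C1RL from 30.1 to 73.4 CPM. In Cal27 with the plasmid 12 of the 19 fell (63.2%) and 3 rose (15.8%), with a median of -0.64 beside 0.03 for all genes. With IL-8 the counts were 1 higher and 3 lower in HN4, 2 and 2 in HN6 and 2 and 7 in Cal27, the last beside 22.7% and 16.7% of all genes.

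The coagulation list held 30 genes other than TFPI2 and SERPINA10, of which 22 were tested in the plasmid experiment. In HN6 12 rose (54.5%) and 5 fell (22.7%), with a median of 0.35, and PLAUR, the urokinase receptor, rose from 47.2 to 132 CPM. In Cal27 6 rose (27.3%) and 8 fell (36.4%), near the shares of all genes (median -0.18). TFPI, the paralogue of TFPI2, rose from 2.19 to 9.33 CPM with the plasmid and was at 2.34 and 7.39 CPM without and with IL-8. PROZ, which encodes the partner of SERPINA10, was lower with IL-8 in HN6 (2.70 and 1.27 CPM) and higher in Cal27 (0.491 and 1.06 CPM). In the HN4 libraries labelled ACLY 9 were higher (40.9%) and 3 lower (13.6%).

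Among 14 partners of osteopontin tested with IL-8, 1 was higher and 2 lower in HN4, 3 and 2 in HN6 and 4 and 6 in Cal27. MMP3, a matrix protease that cuts osteopontin, was at 1.23 CPM in untreated HN4 and 11.8 CPM with IL-8. With the plasmid in HN6, 9 of 15 rose and none fell (median 0.38), among them ITGB3, an integrin subunit of the osteopontin receptor, from 0.249 to 3.16 CPM. In Cal27 5 rose and 7 fell (33.3% and 46.7%, median -0.47).

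The lists around PKIB, NNMT and CPE held genes called in both directions with the plasmid, in HN6 and in Cal27. Of 25 protein kinase A genes, 6 rose and 10 fell with the plasmid in HN6 (median -0.11) and 12 rose and 5 fell in Cal27 (median 0.16), where the regulatory subunit gene PRKAR1B went from 54.9 to 230 CPM. Of 26 genes of nicotinamide and methyl donors, 9 rose and 11 fell in HN6 (median 0.00), with MAT2A, which makes S-adenosylmethionine, falling from 301 to 132 CPM, and 9 rose and 12 fell in Cal27 (median -0.09). NAPRT, the first enzyme of NAD synthesis from nicotinic acid, rose in Cal27 from 1.86 to 56.6 CPM with the plasmid. Of 19 prohormone processing genes, 8 rose and 3 fell in HN6 (median 0.30) and 5 rose and 6 fell in Cal27 (median -0.01), with the convertase PCSK1 falling from 3.98 to 0.542 CPM.

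The lists around NFAM1 and SRPX also held genes called in both directions, though not in equal numbers for the SRPX list in HN6. Of 18 ITAM receptor and NFAT genes, 5 rose and 5 fell in HN6 (27.8% each, near the shares of all genes), where NFATC4 rose from 2.16 to 14.6 CPM, and 7 rose and 7 fell in Cal27 (38.9% each), where VAV1 rose from 0.603 to 3.68 CPM. NFATC4 was lower with IL-8 in HN4 (15.1 and 7.49 CPM) and higher in HN6 (2.38 and 6.50 CPM). Of 21 sushi repeat matrix genes, 12 rose and 5 fell in HN6 (57.1% and 23.8%) and 8 rose and 8 fell in Cal27 (38.1% each). THBS1, which encodes thrombospondin, fell in HN6 from 1310 to 383 CPM.

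Markers of other cell types also moved with the plasmid in HN6. The myeloid and lymphoid list summed to 35.8 to 42.2 CPM in HN6 with the plasmid and 18.1 to 18.8 CPM with vector, the fibroblast list to 53.6 to 61.5 and 19.1 to 22.8 CPM, and the endothelial list to 22.2 to 24.5 and 12.6 to 13.5 CPM. Of 6 leukocyte markers tested, 3 rose and none fell: CSF1R went from 693 reads to 1634, CD14 from 173 to 316 and CD3E from 0.286 to 0.783 CPM. All 4 fibroblast markers tested rose, COL1A1 from 14.9 to 44.9 CPM, and of 6 endothelial markers 4 rose and 1 fell, PECAM1 going from 0.994 to 4 CPM. In HN6 with the plasmid, 8 of the 18 leukocyte, 2 of the 10 fibroblast and 1 of the 8 endothelial markers had no read. PTPRC had 0 reads with vector and 2 with the plasmid and SPI1 none in either, and the part of these lists in the HN6 values was not tested. In Cal27 the same lists went mostly the other way with the plasmid. There 4 of 6 leukocyte markers fell and none rose, and 3 of 4 fibroblast markers fell and 1 rose. Of 6 endothelial markers, 3 fell and 1 rose. Of 18 epithelial markers, 9 rose and 5 fell in HN6, and 4 rose and 14 fell in Cal27.

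As a description of likeness, each gene's log2 group means, after the mean of the line was taken off, were correlated over the 12 groups with 11838 protein-coding genes. The points share the libraries and the line groups, the 2 Cal27 groups with reads of HN4 genes included, so no p is given. The 6 groups of the IL-8 experiment by which the 10 genes were chosen are among the 12. The genes most like each were CBR1 for SPP1 (r = 0.98), MME for PKIB (0.992), MAGEB2 for TFPI2 (0.994), RFTN1 for NNMT (0.976) and ZNF777 for SRPX (0.993). For the genes that were lower they were RUNX2 for NFAM1 (0.987), FEZ1 for C5AR1 (0.942), ZNF519 for SERPINA10 (0.954), SMAD3 for C5 (0.965) and BAZ2B for CPE (0.985). MME, RFTN1, FEZ1 and SMAD3 were themselves called in the same direction with IL-8 in all 3 lines, so the choice set part of these likenesses too. Likeness among the 10 themselves is not given, since the choice set part of it.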

How the data were processed

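RNA-seq counts of 36 libraries from 3 cell lines were used. The authors deposited raw read counts, without normalization, for 58735 genes. HISAT2 2.0.5, CASAVA, DESeq2 and featureCounts 1.5.0-p3 are named, with hg38 as the genome, per the submitters' processing notes. Whether counting used the strand was not given in the sources used here. All 58735 genes had their GENCODE 29 start and end.

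Each experiment (18 libraries, 12 residual degrees of freedom) was fitted with edgeR 4.0.16 in R 4.3.3 (limma 3.58.1): TMM, filterByExpr by group (minimum count 10, minimum total 15), robust quasi-likelihood, two-sided tests, Benjamini-Hochberg adjustment over all genes and a threshold of 0.05. Levels are CPM with TMM factors over 36 libraries. RPKM used the deposited gene length. Read ratios have 95% exact conditional intervals, and a count of 0 allows 3 counts. Patterns used log2(CPM + 0.5). Read totals and limits cover counting error only.

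The members and lists were chosen with earlier results of these data known. Named genes were the 10 members, ACLY, up to 4 called genes of each list with the largest difference, and for each member its most alike genes. Genes just outside the choice, SP140, CP, PTPRC and SPI1 are named as well. Some list genes under this rule are not reported here. Promoters are RefSeq windows on GRCh38.p14. Alternatives were DESeq2 1.42.0, upper-quartile and library-size scaling, no filter, a mean of 5 CPM, a line alone, all 36 libraries in 1 fit, a replicate block and each replicate left out. The comparison of vector libraries with the HN4 libraries labelled ACLY, and of the HN6 and Cal27 responses alone, were added after the data were seen.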

Additional observations from a re-analysis of the deposited data

Results flagged for a closer look

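The response to the plasmid, as labelled, differed among the lines for each of the 10 genes in edgeR's test of both interaction terms, adjusted over all genes. The same test called 70.9% of all genes, so this is not read as particular to the 10. The adjusted p was 3.51e-16 for SPP1, with log2 differences of -1.85 in HN4 as labelled, 0.50 in HN6 and 5.70 in Cal27. It was 3.74e-12 for PKIB (-2.47, 1.11 and 2.25), 4.71e-20 for TFPI2 (-0.59, -0.44 and 6.86), 1.29e-13 for NNMT (-0.54, 2.84 and 1.79) and 3.08e-14 for SRPX (-0.50, -1.17 and 1.95). It was 2.29e-11 for NFAM1, 0.00118 for C5AR1 and 0.000854 for SERPINA10, which went from 0.10 in HN4 to -1.71 in Cal27. It was 8.28e-06 for C5 (1.04, -0.70 and -0.63) and 6.12e-13 for CPE (1.02, 1.26 and -1.07). All these values use the HN4 labels. Between HN6 and Cal27 alone the adjusted p was 0.226 for SERPINA10 and 0.91 for C5, and under 0.05 for the other 8, beside 61.9% of all genes. ACLY was low in the HN4 libraries labelled ACLY and HN4 genes were read in the Cal27 plasmid libraries, and the part of either in these differences was not tested.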

How the results depend on the processing

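With only the 6 libraries of a line, the genes called with IL-8 numbered 6551 in HN4, 6025 in HN6 and 2588 in Cal27, against 2572, 2837 and 7247. Leaving out 1 library gave 1401 to 5738 in HN4, 1742 to 6194 in HN6 and 5486 to 7884 in Cal27. The plasmid counts ranged from 6083 to 7190 in HN4 as labelled, 8733 to 10270 in HN6 and 10896 to 12399 in Cal27, and from 12710 to 13683 for the difference among lines. The vector counts ranged from 12334 to 13403 (HN6 and HN4), 12791 to 13994 (Cal27 and HN4) and 13166 to 14280 (Cal27 and HN6). Signs turned, in genes that had not passed, for C5AR1 in HN4 (-0.057 to 1.03 over the libraries left out, lowest without vector replicate 3), for SERPINA10 in HN4 (-0.0569 to 0.282, with -0.0429 without ACLY replicate 2) and for C5AR1 in HN6 (0.045 with library-size scaling, 0.0579 with upper-quartile scaling, and -0.0897 to 0.0483 over the libraries left out). Upper-quartile scaling moved the median log2 difference of all genes in Cal27 with the plasmid from 0.03 to -0.11, and the genes called higher there from 6353 of 11734 to 4995 of 11856. It moved those in HN4 as labelled from 3512 of 7062 to 4399 of 7141, and with IL-8 those in HN4 from 1268 of 2572 to 812 of 2511, in HN6 from 1400 of 2837 to 1760 of 2760 and in Cal27 from 4175 of 7247 to 3474 of 7423. Against the HN4 libraries labelled ACLY, an alternative added after the data were seen, CPE in HN6 turned from 0.98 to -0.042 (adjusted p 0.828) and C5 in Cal27 from 0.72 to -0.318 (0.142), and the calls of SPP1 in HN6 (0.646) and NFAM1 in Cal27 (0.467) were lost. The cause of these shifts was not tested.

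Deviations of same-numbered libraries correlated from -0.355 to 0.306, over 0.1 in 1 of 18 pairs. Both extremes were pairs of Cal27 IL-8 and untreated libraries. With groups of 3 libraries these correlations cannot decide whether replicate numbers pair the samples. With the replicate block, the plasmid counts were 6927, 9468 and 11630 in HN4 as labelled, HN6 and Cal27 and the IL-8 counts 2466, 2710 and 7092. Depth limits NFAM1 and C5 in HN6, C5AR1 in HN4, and SPP1 and TFPI2 in Cal27.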
